A study of Danio rerio with 12 samples.

Results

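A set of 9 interferon response genes was followed across 12 zebrafish (Danio rerio) melanomas, of which 7 are described in detail: the effectors isg15, mxa and rsad2, a gene listed as IFITM10, and the regulators stat2, irf9 and irf7. The list of 9 was chosen with earlier results of these data known. Its genes were matched by symbol alone, with letter case ignored, and all 9 were found, each in a single row, among the 27827 genes listed. The tumours were 6 melanomas from MiniCoopR-GFP fish (the GFP group) and 6 from MiniCoopR-MyrRSK fish (the MyrRSK group). In this system a transgene restores mitfa, the master regulator of melanocytes, in mitfa-deficient fish and carries along a chosen gene, here green fluorescent protein or MyrRSK, an engineered version of the kinase RSK. The labels give no age, sex, further host allele, treatment or species of the RSK transgene. Whether each melanoma came from a separate animal is not stated, and the p-values thus reflect sample-to-sample spread that may in part be technical.

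Interferons are secreted proteins that cells release when they sense viral or misplaced nucleic acids. Receptor-bound Janus kinases phosphorylate STAT proteins, among them STAT2, which act with IRF9 and switch on a set of target genes, while IRF7 drives production of further type I interferon. Among the targets, isg15 encodes a ubiquitin-like modifier, mxa a dynamin-like antiviral GTPase and rsad2 viperin, a radical SAM enzyme that blocks viral replication. The genes stat2, irf9 and irf7 are themselves interferon targets in mammals, so a tumour with an active response usually carries high levels of many of them together. IFITM proteins are small membrane proteins, several of which restrict virus entry. Tumours are mixtures, and interferon genes can be read from the malignant cells or from infiltrating leukocytes. In bulk RNA a change in the number of such cells cannot be told apart from a change in RNA per cell.

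PolyA RNA was sequenced and counted per gene, with 61750434 to 72257237 counts per library. Values below are CPM, a gene's count relative to the scaled library total, and log2 fold changes are MyrRSK over GFP with standard errors from edgeR's quasi-likelihood test across 26866 genes, adjusted by Benjamini-Hochberg. The 9 genes all passed the filter on low counts, with raw counts from 139 for IFITM10 in GFP 5 to 77398 for stat2 in GFP 6. Melanocyte markers were present in every library, with 11 markers summing to 1679 to 35600 CPM in GFP and 4238 to 17920 CPM in MyrRSK melanomas and no marker at 0. By the mean log2 CPM of those markers GFP 6 was the lowest library, at 5.12 against 7.22 to 8.71 in the other GFP melanomas.

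The gene listed as IFITM10 rose in MyrRSK melanomas, and the other 8 genes did not pass the test. In GFP melanomas its lowest, median and highest values were 2.28, 3.79 and 12.7 CPM, and in MyrRSK melanomas they were 28.9, 35.6 and 102 CPM. The groups did not overlap, since the lowest MyrRSK library, MyrRSK 5, lay above the highest GFP library, GFP 1. The means were 5.21 ± 3.84 and 53.3 ± 31.5 CPM (SD, n = 6 per group), a log2 fold change of 3.35 ± 0.49 (SE) with a 95% interval of 2.30 to 4.41, or 10.2-fold (edgeR adjusted p = 0.0204). Over all genes tested, 0.406% were called by this rule, 0.29% higher and 0.115% lower. The 6 MyrRSK values exceeded the 6 GFP values without overlap in 1.01% of genes and fell short of them in 0.722%. The authors' deposited table lists a log2 fold change of 2.50 ± 0.35 (SE) for IFITM10 with an adjusted p of 1.57e-09, and 5.17% of the genes that have an adjusted p there are under 0.05, including 2.88% that are higher. A DESeq2 fit to the same counts gave 3.36 ± 0.46 (DESeq2 adjusted p = 1.053e-09). The settings behind the deposited estimate are not known, so its size cannot be compared directly with the values here.

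The name of this gene is uncertain, and the human counterpart listed for it is RP11-295K3.1. Its identifier, ENSDARG00000093303, lies on chromosome 5 from 34876187 to 34876977 in genome build Zv9, and a table of current gene names pairs the same identifier with ifitm1. In mammals IFITM1 is an interferon-induced restriction factor, whereas induction of IFITM10 by interferon is not well established. The table held 2 further rows of the IFITM family, listed as IFITM5 and as si:dkey-204f11.3, whose human counterpart is given as IFITM4P. IFITM5 had between 2 and 40 reads per library and si:dkey-204f11.3 between 3 and 59, too few to describe.

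The call of IFITM10 ended when GFP 2 was left out (adjusted p = 0.0552) or MyrRSK 4 (adjusted p = 0.0528), while its log2 fold change stayed at 3.30 and 3.46. Calls over all genes fell in the same fits, from 78 higher and 31 lower with all libraries. Without GFP 2 they were 1 and 0, and without MyrRSK 4 they were 2 and 0. Markers of skeletal muscle were higher in MyrRSK melanomas as well: 2 of 25 tested markers were called higher and 0 lower, 17 were higher at an unadjusted p under 0.05, and 22 had a log2 fold change above 0. Of all genes tested, 7.18% were higher at an unadjusted p under 0.05 and 44.9% had a log2 fold change above 0. The muscle markers had a median log2 fold change of 3.25, and their mean log2 CPM was -0.32 ± 0.52 in GFP and 2.01 ± 1.59 in MyrRSK melanomas (SD, n = 6). Their sum ran from 670.4 to 1752 CPM in GFP and from 631.6 to 2248 CPM in MyrRSK libraries, and most of it came from aldoaa and atp2a1, whose log2 fold changes were 0.0015 and -0.08. Of the markers, 2 were at 0 in at least 1 library. With the mean log2 CPM of these markers as a covariate the log2 fold change of IFITM10 was 3.35 ± 0.60 and the call ended (adjusted p = 0.110). Over all genes that fit called 1 higher and 0 lower, against 78 and 31 without the covariate. IFITM10 was highest in MyrRSK 2 and MyrRSK 3, at 102 and 84.0 CPM. Those libraries differed in muscle markers, with mean log2 CPM of 3.66 and -0.32, the second being the lowest of the MyrRSK group. MyrRSK 4, with the highest muscle mean of 3.95, had 33.7 CPM of IFITM10. The muscle mean itself differed between the groups, so the covariate fit cannot fully tell muscle content from group. Values of single libraries cannot do so either, and the part of muscle cells in the rise of IFITM10 was not tested. General leukocyte markers had 0 of 10 called, summed to 380.6 to 1435 CPM in GFP and 833.8 to 2319 CPM in MyrRSK libraries, and were at 0 in no library. With their mean as a covariate IFITM10 kept its call (3.01 ± 0.54, adjusted p = 0.0320). Neutrophil markers had 0 of 11 called and 10 with a log2 fold change above 0, with a median of 1.17. Their mean log2 CPM was highest in MyrRSK 2 and MyrRSK 3 (6.29 and 5.02) and, within GFP, in GFP 1 (5.01). These libraries were also the highest of their groups in IFITM10. MyrRSK 6, lowest of its group at 4.26, had 37.1 CPM of IFITM10, against 12.7 CPM in GFP 1. The neutrophil mean was not used as a covariate, and its part in the rise of IFITM10 was not tested.

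**Figure D1:**
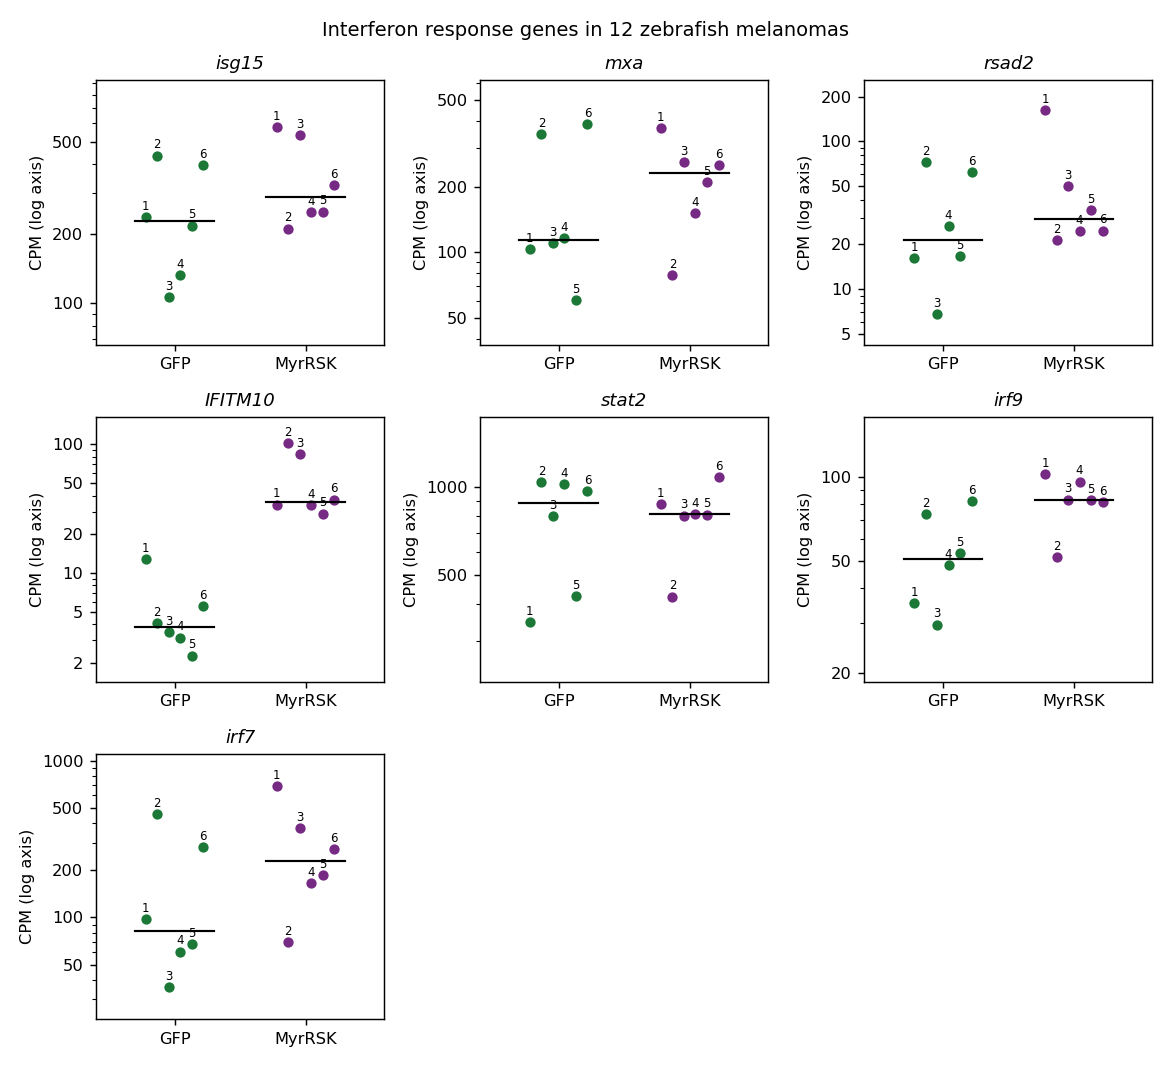
Level of each of the 7 genes described, in CPM, on a logarithmic axis, in the 6 GFP (green) and 6 MyrRSK (purple) melanomas; each point is a library with its replicate number and the black line is the group median. IFITM10 is the gene whose groups do not overlap, at 2.28 to 12.7 against 28.9 to 102 CPM.

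The 3 classical effector genes spanned a wide range in both groups and did not pass. The ubiquitin-like modifier gene isg15 (ENSDARG00000086374, chromosome 5) had a lowest, median and highest value of 106 CPM, 227 CPM and 436 CPM in GFP melanomas. In MyrRSK melanomas these were 210.5 CPM, 288 CPM and 580 CPM (579.5 in MyrRSK 1). The groups overlapped, with MyrRSK 1 and MyrRSK 3 above every GFP library and GFP 3 and GFP 4 below every MyrRSK library. Its log2 fold change was 0.50 ± 0.38 with a 95% interval of -0.33 to 1.32 (edgeR adjusted p = 0.566).

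The Mx gene mxa (ENSDARG00000021688, chromosome 1) ran from 60.3 CPM through a median of 113 to 388 CPM in GFP and from 78.6 CPM through 230.4 to 371 CPM in MyrRSK melanomas. In GFP the values fell into a high pair, GFP 2 and GFP 6 at 348 and 388 CPM, and 4 libraries of at most 117 CPM, while the MyrRSK values lay within the GFP range. The log2 fold change was 0.23 ± 0.48, with an interval of -0.79 to 1.25 (edgeR adjusted p = 0.847). The neighbouring gene mxb on the same chromosome is a close paralog, so reads of these genes may have been divided or lost in counting and the value of mxa is uncertain to that extent.

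The viperin gene rsad2 (ENSDARG00000004952, chromosome 17) had the widest span of the 3, with 6.73 CPM, 21.6 CPM and 72.01 CPM as lowest, median and highest GFP values and 21.5 CPM, 29.5 CPM and 162 CPM in MyrRSK melanomas. Its highest library, MyrRSK 1, held 24.1 times the level of its lowest, GFP 3. The log2 fold change was 0.66 ± 0.63, with an interval of -0.69 to 2.02 (edgeR adjusted p = 0.647), and without MyrRSK 1 it was -0.11 ± 0.53. The intervals of all 3 effectors include both 0 and 1 on the log2 scale, so a rise of that size could not be told from none in these tumours.

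**Figure D2:**
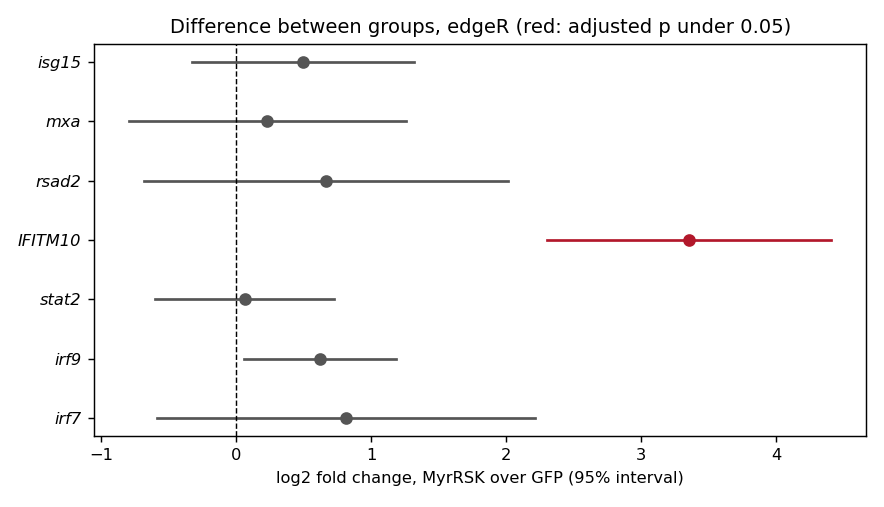
Log2 fold change of MyrRSK over GFP melanomas for each gene (point) with its 95% interval (line) from edgeR, 6 libraries per group; red marks an adjusted p under 0.05. IFITM10 stands at 3.35, and the other 6 lie between 0.06 and 0.81.

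The regulators that carry the interferon signal were also not called. The gene irf9 (ENSDARG00000016457, chromosome 12), the DNA-binding partner of STAT2, came nearest. Its values were 29.7 CPM, 51.0 CPM and 82.2 CPM (lowest, median, highest) in GFP and 51.8 CPM, 82.8 CPM and 103 CPM (102.5) in MyrRSK melanomas. In 4 of 6 MyrRSK libraries it lay above every GFP library, with MyrRSK 6 just under the highest GFP value and MyrRSK 2 near the GFP median. The log2 fold change of 0.62 ± 0.26 had an unadjusted p of 0.0328 and an edgeR adjusted p of 0.274, where 15.5% of all genes tested had an unadjusted p under 0.05.

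The gene stat2 (ENSDARG00000031647, chromosome 6), the STAT specific to type I and type III interferon signals, differed least. Its values were 347 CPM, 883 CPM and 1043 CPM in GFP and 424 CPM, 808 CPM and 1085 CPM in MyrRSK melanomas (lowest, median, highest), with the ranges almost coinciding. The log2 fold change was 0.06 ± 0.31, with an interval of -0.60 to 0.72, so a change of 1 on the log2 scale in either direction lies outside it (edgeR adjusted p = 0.941). The gene irf7 (ENSDARG00000045661, chromosome 25) had values of 36.0 CPM, 82.4 CPM and 456 CPM in GFP and 69.5 CPM, 229 CPM and 689 CPM in MyrRSK melanomas. The GFP values of irf7 spread over 12.7-fold and the MyrRSK values over 9.91-fold, with MyrRSK 1 above every GFP library. Its log2 fold change of 0.81 ± 0.65, the largest estimate after IFITM10, had an interval of -0.59 to 2.21 (edgeR adjusted p = 0.582). It was 1.43 ± 0.62 without GFP 2 and 0.36 ± 0.64 without MyrRSK 1, the latter below the 0.55 of irf9 in the same fit.

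Over the 9 genes edgeR called 1 higher and 0 lower. An unadjusted p under 0.05 was reached by 2 genes in the higher and 0 in the lower direction, where 7.18% and 8.33% of all genes reached it. DESeq2 and limma-voom called the same single gene, IFITM10, where DESeq2 called 5.73% of all genes (2.91% higher, 2.83% lower) and limma-voom 0.395% (0.32% higher, 0.0744% lower). The log2 fold change was positive in 8 of the 9 genes with a median of 0.62, while over all genes tested it was positive in 44.9% with a median of -0.07. Because most of these genes varied together from tumour to tumour, these signs do not count as separate observations. Leukocyte markers moved in the same direction, with log2 fold changes of 0.28 to 0.61 in 10 of 10 and 0 called. With the leukocyte mean as a covariate the estimates were 0.17 ± 0.31 for isg15, -0.02 ± 0.39 for mxa and 0.59 ± 0.54 for irf7. For rsad2, irf9 and stat2 they were 0.51 ± 0.62, 0.50 ± 0.26 and -0.03 ± 0.33, against 0.66, 0.62 and 0.06 without it. With the muscle mean as a covariate isg15, mxa and irf7 stood at 1.18 ± 0.52, 1.38 ± 0.69 and 2.204 ± 0.99. Values for rsad2, irf9 and stat2 were then 1.67 ± 1.06, 0.78 ± 0.40 and 0.51 ± 0.47. None of these genes was called in either fit (edgeR adjusted p from 0.376 to 0.985). The part of leukocyte or muscle cells in these values was not tested.

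Most of these genes varied widely within the groups. The SD of log2 CPM within groups was 1.27 for irf7 and 1.198 for rsad2, against a median of 0.456 over the 11685 genes of at least 10 CPM, which placed them at the 94.8th and 93.7th percentile. For mxa, IFITM10 and isg15 it lay between 0.724 and 0.933, at the 78.8th to 87.9th percentile. For irf9 it was 0.474, close to that median, and for stat2 it was 0.588.

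The same tumours were high or low for many of the genes. GFP 2 was among the 2 highest GFP libraries for all 8 genes other than IFITM10, and GFP 6 for 6 of the 8, with stat2 among the exceptions. MyrRSK 1 was among the 2 highest MyrRSK libraries for all 8. MyrRSK 2 was the lowest MyrRSK library for all 8, and at the same time the highest of all 12 for IFITM10. In leukocyte markers GFP 2 and GFP 6 were the highest GFP libraries, with mean log2 CPM of 6.69 and 6.75 against 4.80 to 5.75 in the others. MyrRSK 1, the library highest in isg15, rsad2, irf9 and irf7, had a leukocyte mean of 6.12, within the MyrRSK range of 5.99 to 7.37. MyrRSK 2 had 6.23, and was the highest library in neutrophil markers, at 6.29 against 4.26 to 5.02 in the other MyrRSK melanomas.

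**Figure D3:**
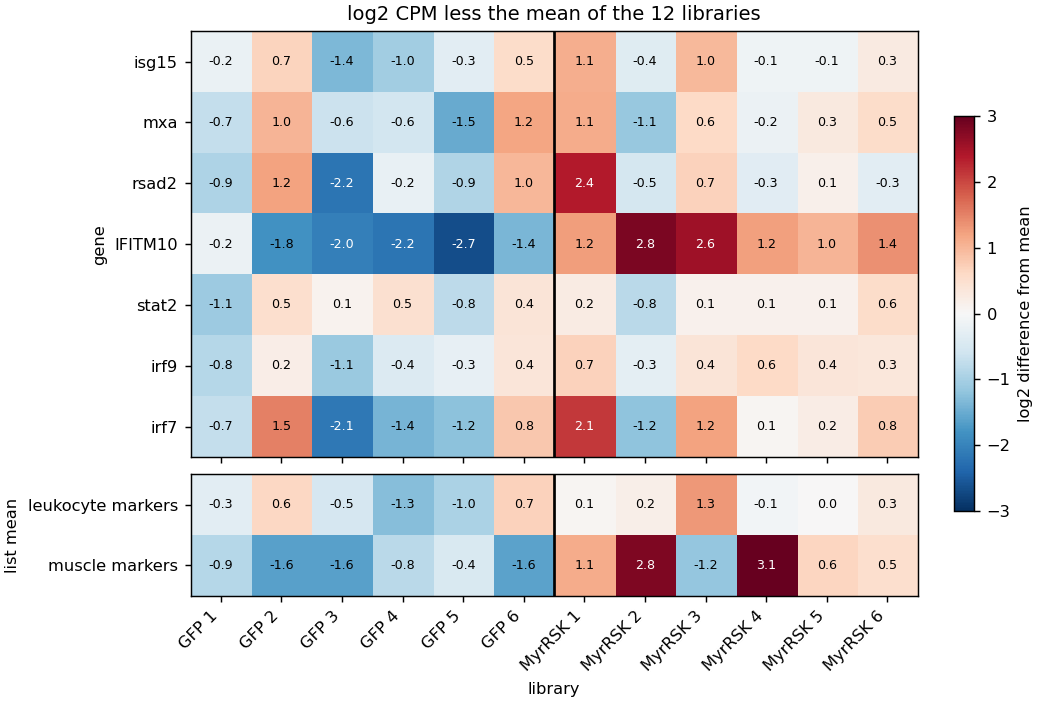
Log2 CPM of each gene in each library, less the gene's mean over the 12 libraries (red higher, blue lower), with the same for the mean of leukocyte and of skeletal muscle markers below; the vertical line parts the groups. GFP 2, GFP 6, MyrRSK 1 and MyrRSK 3 are high for isg15, mxa, rsad2 and irf7, whereas the IFITM10 line follows the groups.

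After the group means were removed, isg15, mxa, rsad2, irf9 and irf7 rose and fell together across the 12 libraries. Correlations were tested by permutation with 100000 resamples and adjusted over all 36 pairs of the 9 genes. Values were shuffled over all 12 libraries without regard to group, and no allowance was made for the removed means. The permutation p-values may therefore be somewhat too small. Of these 36 pairs 16 passed with Spearman's rho and 18 with Pearson's r. Of the 18, 17 were positive and 1 negative, and the median r of the 36 pairs was 0.52. Without MyrRSK 2, an alternative chosen after the data were seen, 14 passed with Pearson's r and the median r was 0.40. For isg15 and irf7 Pearson's r was 0.94 (permutation p = 1e-05, the smallest these resamples can give, adjusted p = 0.00036) and Spearman's rho was 0.94 (permutation p = 3e-05). Without the 2 libraries farthest from the isg15 median r was 0.91, and it was 0.95 within GFP and 0.92 within MyrRSK melanomas. For mxa and irf7 r was 0.89 (permutation p = 0.00015, adjusted p = 0.00108) and rho 0.86 (permutation p = 0.00061), with r = 0.83 without the 2 libraries farthest from the mxa median, 0.85 within GFP and 0.97 within MyrRSK melanomas. Among the 15 pairs of isg15, mxa, rsad2, stat2, irf9 and irf7 the median r was 0.75 (range 0.22 to 0.94) and 11 passed, both with Pearson's r and with Spearman's rho. The 4 other pairs all involve stat2, whose r with isg15 was 0.22 (permutation p = 0.475). Without MyrRSK 2, 9 of these 15 pairs passed with Pearson's r and 5 with Spearman's rho, and the median r was 0.72. The median r of the 15 pairs within MyrRSK melanomas was 0.81 with MyrRSK 2 and 0.42 over the 5 libraries without it, so the correlation within that group rests largely on that library. Within GFP melanomas the median was 0.81. There GFP 2 and GFP 6 were the highest libraries for isg15, mxa, rsad2, irf9 and irf7. The GFP median was not computed without them, so how far it rests on those libraries is not known.

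IFITM10 had 1 correlation past the threshold among its 8 pairs within the set of 9, a negative one, and its r ran from -0.67 to 0.17. That pair passed with Pearson's r only: with Spearman's rho it was at -0.48 (adjusted permutation p = 0.233). It no longer passed with Pearson's r without MyrRSK 2 (adjusted p = 0.151). The 6 correlations of IFITM10 with isg15, mxa, rsad2, stat2, irf9 and irf7 ran from -0.49 to 0.17 and did not pass the permutation test (smallest adjusted p = 0.190). Without MyrRSK 2 these 6 ran from -0.33 to 0.39 and did not pass.

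**Figure D4:**
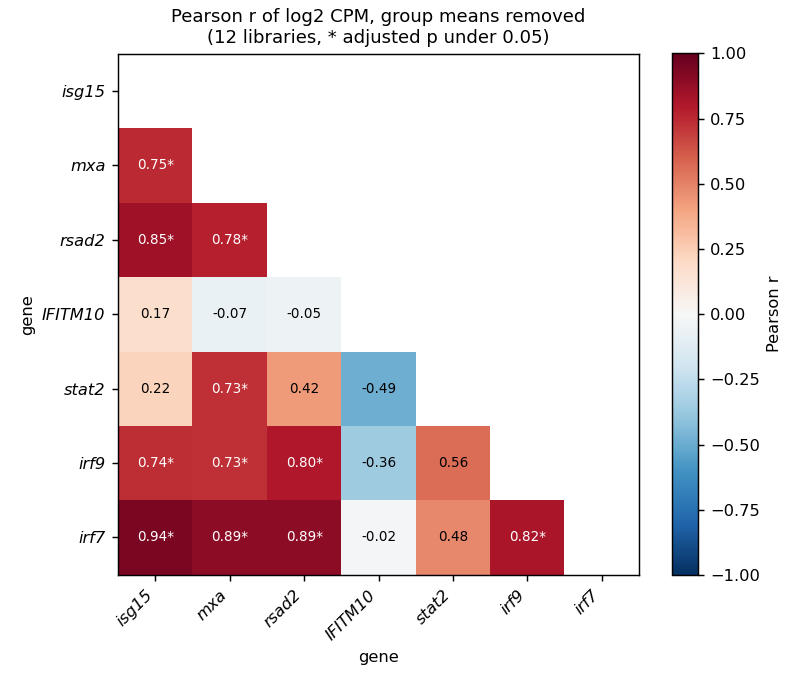
Pearson correlation of log2 CPM between each pair of genes over 12 libraries after the group means were removed; an asterisk marks an adjusted permutation p under 0.05. The columns of isg15, mxa and rsad2 hold values of 0.73 to 0.94 with irf9 and irf7, while the 6 values of IFITM10 shown run from -0.49 to 0.17; over all its 8 pairs they run from -0.67.

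Genes with the most similar profile were sought over the 20792 other genes of at least 1 CPM, as the correlation of log2 CPM with the mean standardized profile of the 8 genes other than IFITM10 (group means removed, 12 libraries). The gene listed as CECR5 had the highest r, at 0.97, followed by steap3, a metalloreductase gene of iron uptake, at 0.96 and tcf12, a basic helix-loop-helix transcription factor gene, at 0.96. The others of the 10 most alike named genes were bsk146, ftr64, ftr73, sult2st2, ftr12, DHX58 and ftr28l, with r from 0.94 to 0.95. Of these, 4 are finTRIM genes (ftr64, ftr73, ftr12 and ftr28l), a fish-specific branch of the TRIM family, and DHX58 encodes LGP2, a regulator of RNA sensing. None of the 10 was called between the groups (edgeR adjusted p from 0.226 to 0.935). IFITM10 itself had an r of -0.26 with that profile.

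Other genes known as interferon-induced were set against the same profile. Of 48 such genes of at least 1 CPM, 19 had an r above 0.8 with it, or 39.6%, against 193 of all 20792 genes, or 0.928%, and the median r was 0.72 against -0.02. The pyrimidine kinase gene cmpk2, which lies beside rsad2 in function and locus in mammals, had an r of 0.92, the galectin-3-binding protein gene lgals3bpb 0.91 and the zebrafish PKR-like kinase gene pkz 0.90. These lie near the top of the list. At its other end mxf and isg20 had 0.05 and 0.08, and apol1 had the lowest value, -0.35. General leukocyte markers had a median r of 0.59 over 10 genes with a highest value of 0.66, and a B cell list had 0.42 over 11 with a highest value of 0.52. Macrophage markers had a median of 0.32 over 27 genes, which include many MFAP4 copies, and ran from -0.24 to 0.86. The highest value was that of mpeg1, a perforin-like gene, with c1qb, a complement gene, at 0.79. Another row of that family, MPEG1 (2 of 3), had 0.27, and the macrophage markers marco and csf1rb had 0.37 and 0.17. T and NK cell markers had a median r of 0.23 over 19 with a highest value of 0.61, and neutrophil markers 0.07 over 11 with a highest value of 0.43. Skeletal muscle markers had a median r of -0.41 over 20 genes. These correlations share the same 12 libraries and are given as a description.

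In 5 lists of the wider interferon pathway no gene was called in either direction with edgeR, where 0.406% of all genes tested were called, so that hardly any call would be looked for in lists of this size. At an unadjusted p under 0.05, 7.18% of all genes were higher and 8.33% lower, which is the background for the list counts that follow. Of 12 ligand and receptor genes tested, 0 passed with edgeR and 0 had an unadjusted p under 0.05, with a median log2 fold change of 0.13. The receptor chain genes with the highest counts, crfb6 and crfb5, stood at 76.8 ± 15.9 and 66.9 ± 27.4 CPM in GFP and 82.7 ± 16.8 and 71.5 ± 16.8 CPM in MyrRSK melanomas (SD, n = 6). The type I interferon gene ifnphi1 lay between 0.823 and 4.47 CPM in GFP and between 1.57 and 4.36 CPM in MyrRSK libraries. The interferon gamma gene ifng1-2 lay between 0.115 and 5.41 CPM and between 1.46 and 8.60 CPM, highest in MyrRSK 3. MyrRSK 3 also had the highest T and NK cell marker mean, at 4.82 against at most 3.48 in any other library. It was likewise the highest library for general leukocyte, macrophage and B cell markers, at 7.37, 5.36 and 4.90. The cell source of ifng1-2 was not tested. These ligands were chosen after their values were seen.

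Of 19 Janus kinase, STAT and feedback genes 0 were called, an unadjusted p under 0.05 was found for 1 upward and 1 downward difference, and the median log2 fold change was 0.20. The feedback inhibitor gene socs3a stood at 114 ± 73.6 and 196 ± 63.1 CPM (log2 fold change 0.78 ± 0.41, edgeR adjusted p = 0.379) and the kinase gene jak1 at 136 ± 45.5 and 157 ± 29.3 CPM (0.20 ± 0.24, edgeR adjusted p = 0.720). The higher gene was cish, a STAT5-induced feedback inhibitor (0.78 ± 0.30), and the lower pias2 (-0.39 ± 0.18), both named after their values were seen. Of 11 other interferon regulatory factor genes 0 were called and 1, irf2a, was higher at an unadjusted p under 0.05 (0.45 ± 0.21). The factors with the highest counts, irf1b and the myeloid factor irf8, had log2 fold changes of -0.12 ± 0.47 and 0.51 ± 0.47.

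Of 21 nucleic acid sensor and adaptor genes 0 were called, an unadjusted p under 0.05 was found for 0 upward and 3 downward differences, and the median log2 fold change was -0.16. The 3 were tlr3, a double-stranded RNA receptor gene (-1.04 ± 0.28, edgeR adjusted p = 0.107), azi2, an adaptor of TBK1 (-1.03 ± 0.30, edgeR adjusted p = 0.124), and tlr8a (-0.98 ± 0.37). The members with the highest counts, DHX58 and trim25, had log2 fold changes of 0.29 ± 0.45 and -0.29 ± 0.27.

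Of 50 other interferon-induced genes 0 were called and an unadjusted p under 0.05 was found for 1 upward and 3 downward differences. The log2 fold change was above 0 in 21 and below 0 in 29, with a median of -0.05. The 2 with the highest counts were lgals3bpb, from 62.8 to 1767 CPM in GFP and from 139.8 to 871 CPM in MyrRSK melanomas (log2 fold change -0.12 ± 0.76), and HELZ2 (1 of 2), a helicase gene (-0.62 ± 0.34). The higher gene was ifi27.1, which in the table is zgc:123068, at 115 ± 79.5 and 415 ± 275 CPM (1.85 ± 0.49, edgeR adjusted p = 0.102). The lower genes were apol1 (-1.47 ± 0.42), the RNA-editing enzyme gene adar (-0.72 ± 0.23) and the guanylate-binding protein gene gbp3 (-0.50 ± 0.22), with edgeR adjusted p from 0.118 to 0.303. These 4 were named after their values were seen. The Mx paralogs mxb, mxc and mxe had log2 fold changes of -0.15 ± 0.71, -0.36 ± 0.64 and 0.78 ± 0.62, so neither they nor mxa passed.

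**Figure D5:**
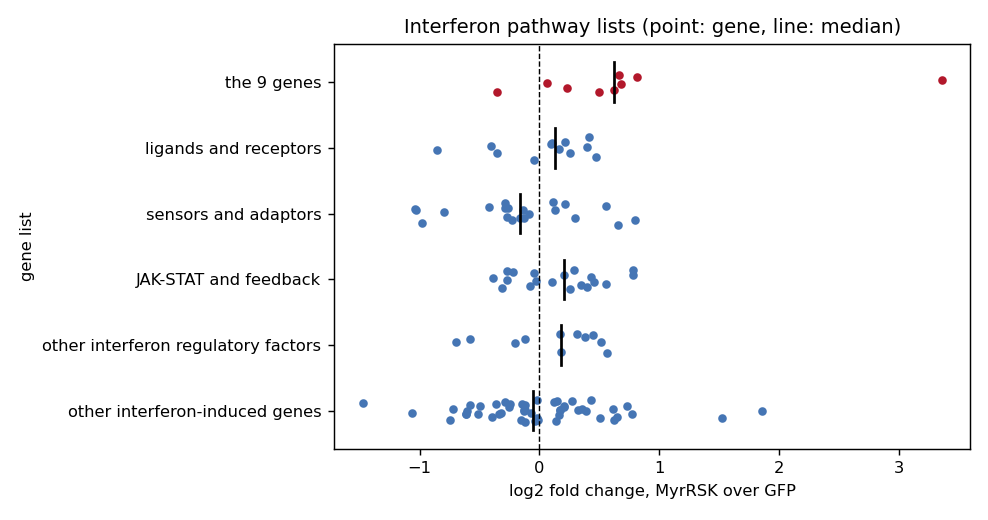
Log2 fold change of MyrRSK over GFP melanomas for every tested gene of each interferon pathway list (point) with the list's median (vertical line). The medians of the 5 wider lists lie between -0.16 and 0.20 and that of the 9 genes at 0.62, with IFITM10 apart at 3.35.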

How the data were processed

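PolyA RNA of 12 zebrafish melanomas, 6 per genotype, was sequenced. The deposited table holds raw read counts per gene, made by the authors with STAR 2.6.1d, HTSeq 0.6.0 and genome build Zv9, per the submitters' processing notes. The authors' deposited table also holds log2 fold changes and adjusted p-values, and DESeq2 is named in those notes. Per the file headers it further holds normalized counts, a signal that the authors scaled by 1 size factor per library, and a test score (the authors' fold change over its standard error); these were not used. No source used here gives the order or settings of the steps or the strand setting of the counting.

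Genes were matched by symbol, and 68.5% of all gene identifiers had an entry in the table of current names. Counts were tested with edgeR 4.0.16 (R 4.3.3; filterByExpr, TMM factors, robust quasi-likelihood, group as the sole term, both groups in the fit) and called at an adjusted p under 0.05. Log2 CPM used a prior count of 1. Alternatives were DESeq2 1.42.0, limma 3.58.1 (voom), other scaling factors, filters and thresholds, marker means as covariates, a replicate block and left-out libraries. Correlations used numpy 2.4.6 and scipy 1.17.1.

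The 9 genes, the pathway and marker lists and the tests were chosen with earlier results of these data known. Of the 9, 2 genes are not reported here singly, though they enter the counts over all 9. Of each pathway list, called genes or, with none called, the 2 with the highest mean count were named. Other genes of the pathway and marker lists were named after their values were seen. A row matched as irf1b through an older name of another gene, and a row listed as tlr7 that carries another current name, were left out of the lists.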

Additional observations from a re-analysis of the deposited data

Results flagged for a closer look

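In 50 sets of 6 libraries (each gene or list in each group) the highest or lowest library was compared with the rest by Dixon's criterion. The comparison was on the log2 scale, and by this criterion chance alone singles out about 1 set in 20. MyrRSK 2 lay far below the other MyrRSK melanomas for stat2, at 423.6 CPM, for irf9, at 51.8 CPM, and for the mean of the other interferon-induced genes, at a log2 CPM of 4.34. The same library lay far above them for neutrophil markers, at a mean log2 CPM of 6.29. MyrRSK 3 lay far above the other MyrRSK melanomas for general leukocyte markers (mean log2 CPM 7.37), macrophage markers (5.36), B cell markers (4.90) and the sensors and adaptors (4.29). No reason for these values was tested.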

How the results depend on the processing

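IFITM10 was higher in MyrRSK melanomas under all 23 alternatives, with log2 fold changes of 3.01 to 3.89 and adjusted p from 1.053e-09 to 0.110, and 19 of them kept its call. It was not called with a replicate block (3.44, adjusted p = 0.0600) or the muscle mean (3.35, adjusted p = 0.110), where 0 of the 9 genes were called. With 1 library left out the log2 fold change was 3.06 to 3.85 and the number of the 9 genes called was 0 to 1. The labels do not say whether the replicate numbers pair the samples. Same-numbered libraries correlated above 0.1 in 1 of 6 pairs, and 0 of 6 GFP libraries matched their own number best. Such correlations cannot settle whether same-numbered samples were handled together. Signs turned for mxa and stat2 with the leukocyte mean (-0.0185 and -0.0268), for stat2 without both GFP 1 and GFP 2 (-0.0053), for rsad2 with 1 library left out (-0.11 to 1.05) and for stat2 likewise (-0.0894 to 0.1911); the cause was not tested. The other 5 genes kept their sign, and none of the 8 was called under any alternative.

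Over all genes, 78 were called higher and 31 lower. The counts were 798 and 775 with DESeq2, 6 and 0 with the replicate block, 146 and 95 with the leukocyte mean, 1 and 0 with the muscle mean, 23 and 7 without both GFP 1 and GFP 2, and 338 and 240 at an adjusted p under 0.1. Genes called lower numbered 20 with limma-voom and 77 at a mean of at least 100 normalized counts. With 1 library left out 1 to 104 genes were called higher and 0 to 84 lower. Over the 36 pairs, 14 to 18 passed under the alternatives and the median r was 0.40 to 0.52, lowest without MyrRSK 2. Spread between libraries limits the intervals, and its biological and technical parts cannot be told apart.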
